A study of Citrus maxima with 6 samples.

Results

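The genes described here are 4 of the 29406 genes in a table of transcript levels from ripe pummelo pericarp: the matches to 1-aminocyclopropane-1-carboxylate (ACC) synthase (Cs1g21210), L-3-cyanoalanine synthase 2 (orange1.1t00386), cysteine synthase (Cs9g06970) and gamma-glutamyltranspeptidase 3 (Cs4g13090). Identifiers are those of the sweet orange gene models, and the names come from the study's Swiss-Prot matches. For Cs1g21210 and Cs4g13090 these matches are much weaker than for the other 2 genes, so the names of those 2 are less sure. The genes were chosen by values measured in these same libraries, since the study listed all 4 as lower in the mutant. Their lower level in the mutant is therefore given as a description, without a test.

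MT is the orange-pericarp mutant, which arose as a bud sport of the pummelo 'Guanxi' (Citrus maxima) and is kept by grafting, so that it represents 1 clonal lineage. WT is 'Guanxi' itself, whose ripe pericarp is pale yellow. Both were untreated, and pericarp of ripe fruit was sequenced in 3 libraries for MT and 3 for WT, which the labels call biological replicates and the design text calls pools. The number of reads to which a library was scaled ran from 9787390 to 11108186 in MT and from 9253681 to 10347017 in WT.

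Ethylene is made from S-adenosylmethionine. ACC synthase forms ACC, usually the step that sets the rate, and ACC oxidase then releases ethylene together with cyanide. Plants remove that cyanide mainly through cyanoalanine synthase, a mitochondrial enzyme that joins it to cysteine and gives β-cyanoalanine and sulfide. Cysteine synthase, also called O-acetylserine (thiol)lyase, belongs to the same enzyme family and makes cysteine from O-acetylserine and sulfide. Gamma-glutamyltranspeptidase moves the gamma-glutamyl group of glutathione, which contains cysteine, and its family is also placed in cyanoamino acid metabolism. Citrus fruits are non-climacteric and produce little ethylene on the tree.

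The study designed qRT-PCR primers for 2 of the 4 genes, and these are shown as the study lists them under each identifier. The primers were not aligned to any gene model here. They are written 5′ to 3′ in lower case, as no part of them is marked. Their lengths are 22, 21, 22 and 22 bases in the order shown, with 40.9%, 47.6%, 45.5% and 40.9% G and C.
Cs9g06970 forward: gaaaacacaaatgtgcgtcaca
Cs9g06970 reverse: gcagaagcattagcgaaccaa
orange1.1t00386 forward: tgatgattccttcgtgcttgtc
orange1.1t00386 reverse: cgaaaactaaaatggcctcgtt

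All 4 genes were lower in each of the 3 MT libraries than in each of the 3 WT libraries. The deposited unit is RPKM, the reads of a gene divided by the length of its exon model and by the reads of the library. By the ratio of mean RPKM, the level in WT was 3.50 times that in MT for ACC synthase, 3.36 times for cyanoalanine synthase, 3.32 times for cysteine synthase and 5.24 times for gamma-glutamyltranspeptidase. The genes split into pairs by how they varied between libraries. The ACC synthase and cyanoalanine synthase matches varied together through large differences among the MT libraries. Cysteine synthase and gamma-glutamyltranspeptidase were low in MT, with a spread among its libraries no larger than counting error gives.

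ACC synthase (Cs1g21210) had 34.3 RPKM in MT1, 12.4 in MT2 and 51.4 in MT3, against 79.8 in WT1, 102 in WT2 and 163 in WT3. The groups did not overlap: the lowest WT library was 1.55 times the highest MT library. The mean was 32.7 ± 19.6 RPKM in MT and 115 ± 42.9 RPKM in WT (SD, n = 3 each). MT2 was the lowest of the 6 libraries and MT3 the MT library closest to WT. The values rest on 173 to 710 reads per MT library and 1041 to 2371 reads per WT library. By RPKM the gene stood at rank 2303 to 7924 among all 29406 genes in the MT libraries and at rank 581 to 1337 in the WT libraries.

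Cyanoalanine synthase 2 (orange1.1t00386), the step that removes cyanide, was the most abundant of the 4 genes in all 6 libraries. It had 98.7 RPKM in MT1, 41.5 in MT2 and 299 in MT3, against 410 in WT1, 479 in WT2 and 587 in WT3. MT3 stood well above the other MT libraries, and the lowest WT library was 1.37 times MT3, the narrowest gap among the 4 genes. The mean was 146 ± 135 RPKM in MT and 492 ± 89.5 RPKM in WT (SD, n = 3 each), so that the SD within MT was almost as large as the mean. The gene stood at rank 220 in MT3 and 3028 in MT2, against ranks 100 to 157 in WT.

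Cysteine synthase (Cs9g06970), a match to an enzyme that forms cysteine, was far less abundant. It had 2.52 RPKM in MT1, 2.60 in MT2 and 2.22 in MT3, against 7.39 in WT1, 9.60 in WT2 and 7.36 in WT3. The MT libraries were nearly equal, and the lowest WT library was 2.84 times the highest MT library. The mean was 2.45 ± 0.197 RPKM in MT and 8.12 ± 1.28 RPKM in WT (SD, n = 3 each). Only 28 to 36 reads per library stand behind the MT values and 88 to 125 behind the WT values.

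Gamma-glutamyltranspeptidase 3 (Cs4g13090) was the least abundant of the 4 genes. It had 0.676 RPKM in MT1, 0.929 in MT2 and 0.640 in MT3, against 3.83 in WT1, 5.23 in WT2 and 2.70 in WT3. The lowest WT library was 2.91 times the highest MT library, the widest gap of the 4. The mean was 0.748 ± 0.158 RPKM in MT and 3.92 ± 1.27 RPKM in WT (SD, n = 3 each). With 15 to 22 reads per MT library and 67 to 127 per WT library, its levels are the least precise.

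**Figure D1:**
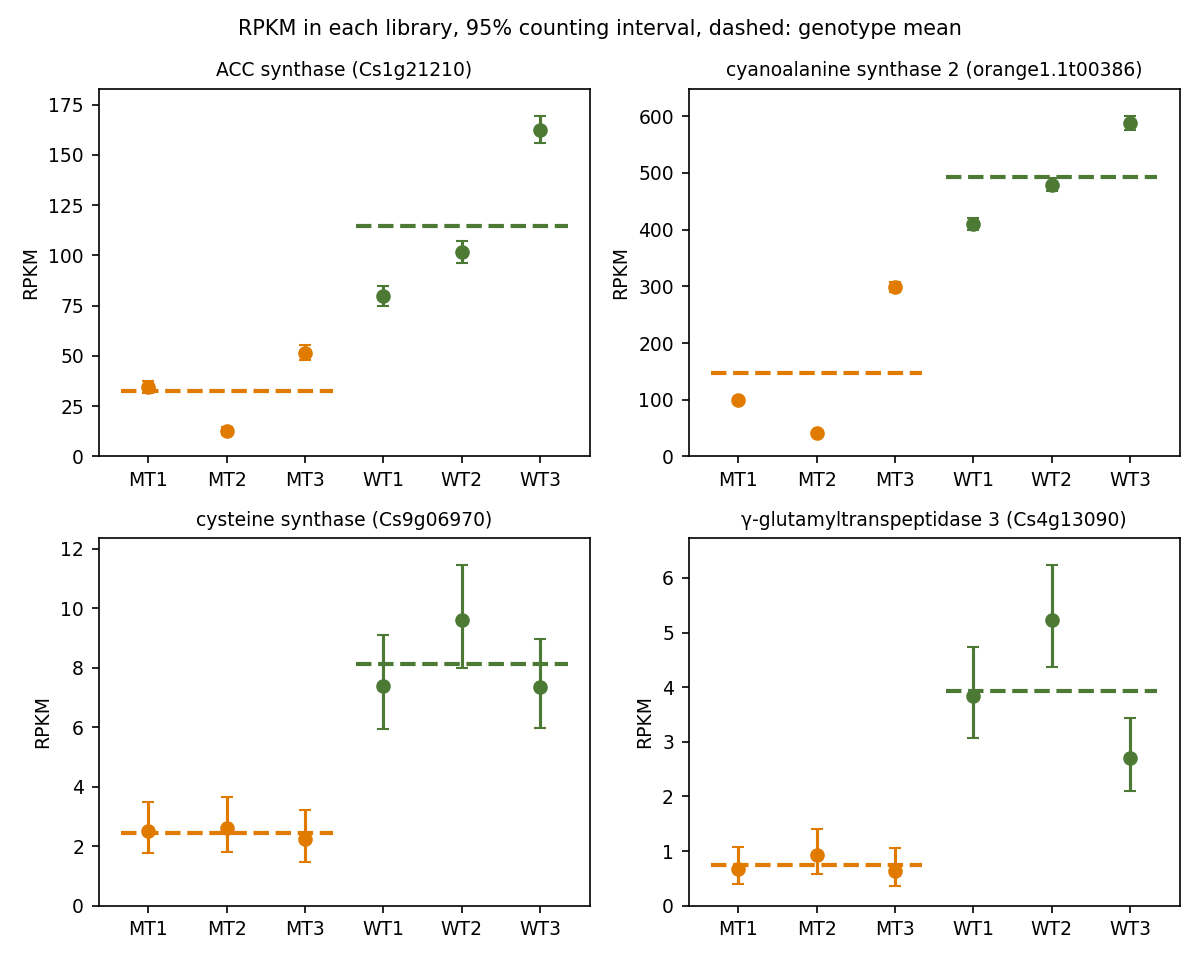
RPKM of each gene (vertical axes, linear and starting at 0) in the MT libraries (orange, left) and the WT libraries (green, right). Bars are exact 95% Poisson intervals of the reads and cover counting error only, and dashed lines are genotype means. All MT points lie below all WT points in each panel, with MT3 at 299 RPKM and WT1 at 410 RPKM the closest pair for cyanoalanine synthase.

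Comparisons across genes used the 16719 genes that averaged 0.3 RPKM or more over the 6 libraries, called tested genes. Of these, 896 (5.36%) had all 3 MT libraries below all 3 WT libraries, beside 4 of the 4 genes here, a count that the choice of the genes fixed. After the libraries were rescaled by their median ratio, 13.0% of genes met that condition, and 4 of these 4 still did. For scale, limma (log2 of RPKM + 0.5, Benjamini-Hochberg adjustment) called 3 tested genes lower in MT at an adjusted p of 0.05 (0.0179%), with 0 of these 4 among them. At an unadjusted p of 0.05 it called 824 genes lower (4.93%), with 4 of these 4 among them. Limma voom on the reads behind the values called 0 genes at the adjusted threshold, and 4 of these 4 at the unadjusted one, where it called 808 genes lower. Without the intensity trend, 1 of the 4 was called, beside 0.0419% of tested genes. Without MT3, 4 of the 4 were called, beside 1.88% of tested genes. All these calls of the 4 genes use the contrast by which the genes were chosen, so they describe that choice and do not test it.

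On the log2(RPKM + 0.5) scale, which understates the change of low genes, the median gene was 0.15 higher in MT. Relative to that median, the difference MT minus WT was -2.09 for ACC synthase, -2.33 for cyanoalanine synthase, -1.69 for cysteine synthase and -1.94 for gamma-glutamyltranspeptidase. For the first pair of genes the size rested most on which MT libraries were used. Leaving out each WT library in turn gave -2.36 to -1.81 for ACC synthase and -2.48 to -2.19 for cyanoalanine synthase. Without MT2 the differences were -1.49 for ACC synthase and -1.61 for cyanoalanine synthase, and without MT3 they were -2.53 and -3.07 in the same gene order. For cysteine synthase, leaving out each library in turn gave -1.78 to -1.54, and for gamma-glutamyltranspeptidase -2.15 to -1.70.

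The order of the libraries within a genotype was not used to choose the genes. ACC synthase and cyanoalanine synthase shared it in both genotypes: MT2 was lowest, MT1 intermediate and MT3 highest, and WT1 was lowest, WT2 intermediate and WT3 highest. For both genes, the 95% counting intervals were apart in 3 of 3 pairs of MT libraries and in 3 of 3 pairs of WT libraries, so these orders exceed counting error. Over the tested genes, 16.4% had that order in MT and 11.1% had that order in WT. Both orders together were found in 279 genes (1.67% of tested genes), and in 79 of the 896 genes wholly lower in MT (8.82%). After median-ratio rescaling both genes kept these orders, which 2.99% of tested genes then had.

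Cysteine synthase and gamma-glutamyltranspeptidase shared another order, with the ends reversed in MT only. MT3 was lowest, MT1 intermediate and MT2 highest, and WT3 was lowest, WT1 intermediate and WT2 highest. Their libraries were mostly not separable at this depth: the counting intervals were apart in 0 of 3 MT pairs for either gene, in 0 of 3 WT pairs for cysteine synthase and in 1 of 3 WT pairs for gamma-glutamyltranspeptidase. Both orders together were found in 633 tested genes (3.79%) and in 17 of the 896 genes wholly lower in MT (1.90%). After median-ratio rescaling gamma-glutamyltranspeptidase kept its orders, while cysteine synthase had MT2 between MT3 and MT1 and WT3 between WT1 and WT2.

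**Figure D2:**
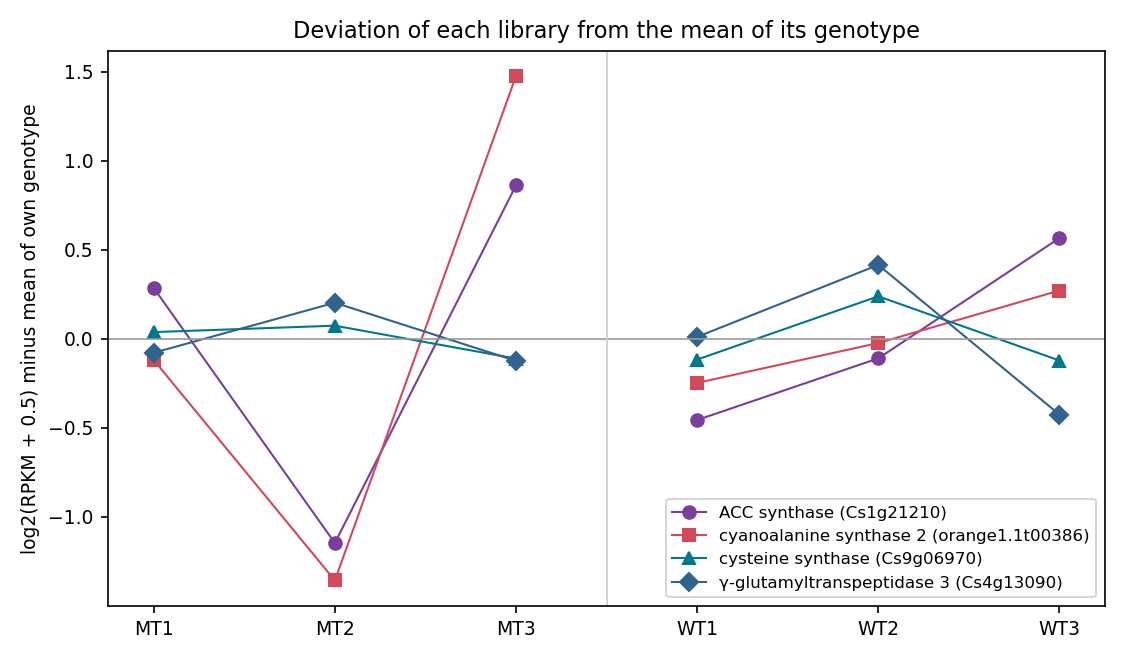
Log2(RPKM + 0.5) of each gene minus the mean of its own genotype (vertical axis) in the 3 MT libraries (left) and the 3 WT libraries (right). ACC synthase (circles) and cyanoalanine synthase (squares) dip together to -1.15 and -1.36 in MT2 and peak at 0.86 and 1.48 in MT3, while cysteine synthase (triangles) and gamma-glutamyltranspeptidase (diamonds) stay between -0.12 and 0.20 in MT.

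The pairs also differed in how much they varied within MT. The highest MT library was 4.14 times the lowest for ACC synthase and 7.20 times for cyanoalanine synthase, but 1.17 times for cysteine synthase and 1.45 times for gamma-glutamyltranspeptidase. The SD of log2(RPKM + 0.5) over the MT libraries was 1.03 for ACC synthase and 1.42 for cyanoalanine synthase. These exceed the SD of 96.8% and 98.8% of tested genes, for which the median SD within MT was 0.26. For cysteine synthase the SD was 0.10 and for gamma-glutamyltranspeptidase 0.18, above 12.7% and 32.4% of tested genes. The coefficient of variation of cysteine synthase RPKM within MT was 8.03%, below the 17.6% that counting error alone gives at its mean reads. For gamma-glutamyltranspeptidase it was 21.1%, beside 23.4% from counting error alone. Adding 0.5 narrows the spread of so low a gene: without it, the SD of log2 RPKM of gamma-glutamyltranspeptidase within MT was 0.29.

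Within WT the contrast between the pairs was not seen. There the SD of log2(RPKM + 0.5) was 0.52 for ACC synthase, 0.26 for cyanoalanine synthase, 0.21 for cysteine synthase and 0.42 for gamma-glutamyltranspeptidase, beside a median of 0.22 over tested genes. Cyanoalanine synthase varied 7.20-fold within MT and 1.43-fold within WT, and ACC synthase varied 4.14-fold within MT and 2.04-fold within WT.

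**Figure D3:**
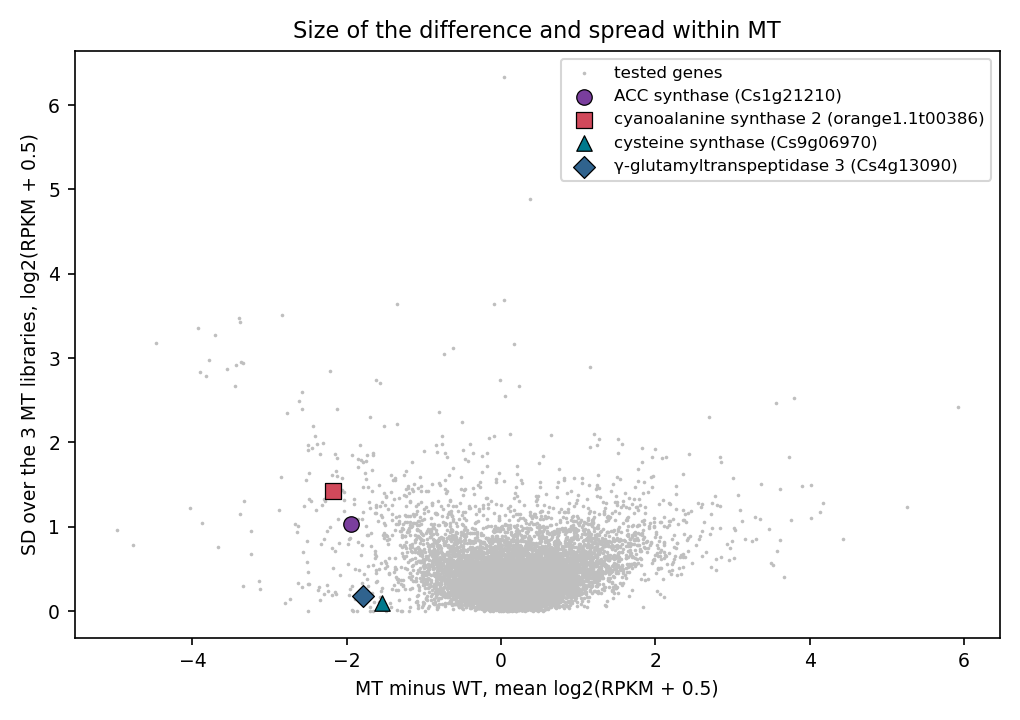
Difference MT minus WT in mean log2(RPKM + 0.5) (horizontal axis) against the SD of the 3 MT libraries on the same scale (vertical axis) for the 16719 tested genes (grey). The 4 genes lie at differences of -2.18 to -1.54, with ACC synthase and cyanoalanine synthase at SDs of 1.03 and 1.42 and cysteine synthase and gamma-glutamyltranspeptidase at 0.10 and 0.18.

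Whether the gene of ethylene synthesis and the gene of cyanide removal were low together was described by their ratio within each library. Cyanoalanine synthase stood at 2.87 times ACC synthase in MT1, 3.35 times in MT2 and 5.81 times in MT3, against 5.14 in WT1, 4.71 in WT2 and 3.61 in WT3. The WT ratios lay inside the range of the MT ratios, with means of 4.01 ± 1.58 in MT and 4.49 ± 0.786 in WT (SD, n = 3 each). Over the 6 libraries the ratio spanned 2.02-fold. On the log2(RPKM + 0.5) scale the difference between the genes had an SD of 0.40 over the 6 libraries, beside 1.50 for cyanoalanine synthase and 1.29 for ACC synthase alone. Those larger SDs include the lower level in MT for which both genes were chosen, so the ratio is better read within a genotype. Within MT its SD was 0.54, below the 1.42 of cyanoalanine synthase and the 1.03 of ACC synthase. Within WT it was 0.26, the same as for cyanoalanine synthase alone (0.26) and below ACC synthase (0.52). The factors were not equal: cyanoalanine synthase varied more than ACC synthase within MT and less within WT.

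For the other pair the ratio was no steadier within a genotype than cysteine synthase alone. Gamma-glutamyltranspeptidase over cysteine synthase gave ratios of 0.268 (MT1), 0.358 (MT2) and 0.288 (MT3), against 0.518 (WT1), 0.545 (WT2) and 0.367 (WT3). The ratio was lower in each MT library than in each WT library, though MT2 and WT3 were close, and counting error alone gives a coefficient of variation of 17.6% for cysteine synthase and 23.4% for gamma-glutamyltranspeptidase in MT. The log2 ratio of RPKM, with no pseudocount, had an SD of 0.22 within MT, beside 0.29 for gamma-glutamyltranspeptidase and 0.12 for cysteine synthase alone. Within WT its SD was 0.31, beside 0.48 for gamma-glutamyltranspeptidase and 0.22 for cysteine synthase. Over all 6 libraries it was 0.42, or 0.23 with 0.5 added to each RPKM value, which narrows the spread of low genes. Cysteine synthase over cyanoalanine synthase was lowest in MT3 and highest in MT2, an 8.40-fold span.

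**Figure D4:**
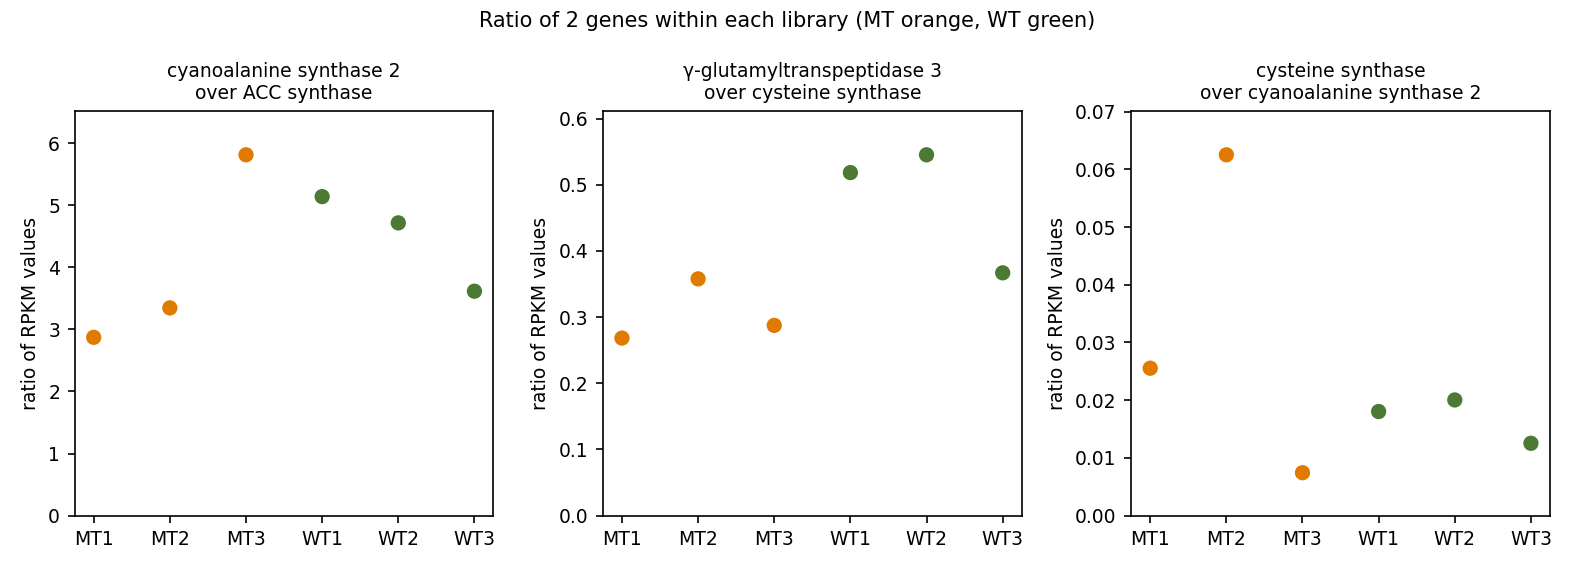
Ratio of the RPKM values of 2 genes within each library (vertical axes, linear and starting at 0) for MT (orange, left) and WT (green, right). Cyanoalanine synthase over ACC synthase runs from 2.87 to 5.81, gamma-glutamyltranspeptidase over cysteine synthase from 0.268 to 0.545, and cysteine synthase over cyanoalanine synthase from 0.00744 in MT3 to 0.0625 in MT2.

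The likeness of profiles was measured as the root mean square difference between log2(RPKM + 0.5) profiles over the 6 libraries, each minus its own mean. Among the 16718 other tested genes, cyanoalanine synthase was the 10th nearest to ACC synthase (0.37), and ACC synthase was the 15th nearest to cyanoalanine synthase. Gamma-glutamyltranspeptidase was the 3rd nearest to cysteine synthase (0.21), and cysteine synthase was the 2nd nearest to gamma-glutamyltranspeptidase. Across the pairs the ranks ran from 427 to 10587. All 4 genes were chosen as lower in MT, which brings their profiles closer, and these ranks are descriptions.

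Among genes averaging 3 RPKM or more, the nearest to ACC synthase was Cs7g09680, an endoglucanase match of a family that cuts cell wall glucans (0.33). It had 31.3, 7.80 and 44.9 RPKM in MT1, MT2 and MT3, against 62.5, 58.8 and 78.1 RPKM in WT1, WT2 and WT3. The next was orange1.1t02075 (0.34), and among genes with a Swiss-Prot match in the study's list, the zinc finger protein ZAT5 (Cs8g15510, 0.34) and a transmembrane protein (Cs4g10710, 0.36) followed. The study's list holds the genes it called different between MT and WT. Its genes were thus chosen on that contrast, which is part of the distance.

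Nearest to cyanoalanine synthase were Cs1g13320 (0.15) and Cs3g02020 (0.19), a match to a Myb family transcription factor. Cs3g02020 had 5.05, 2.87 and 19.0 RPKM in MT1, MT2 and MT3, against 25.0, 34.5 and 46.8 RPKM in WT1, WT2 and WT3, which is the same order of libraries in both genotypes. Pectinesterase 2 (orange1.1t00214, 0.24), a match to enzymes that remove methyl groups from pectin, and the major allergen Pru ar 1 match (Cs9g03570, 0.27) were the next with a Swiss-Prot match.

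The gene nearest to both cysteine synthase (0.11) and gamma-glutamyltranspeptidase (0.15) was Cs2g25560, a match to WRKY75, a transcription factor tied to leaf senescence and phosphate starvation in Arabidopsis. It had 1.30, 1.65 and 1.11 RPKM in MT1, MT2 and MT3, against 5.29, 6.26 and 4.73 RPKM in WT1, WT2 and WT3. With the 4 genes themselves left out, Cs2g15310 came next for both (0.19 and 0.26). The named genes that followed were bHLH25 (Cs8g03200, 0.26) and a naringenin prenyltransferase (Cs7g06090, 0.27) for cysteine synthase. For gamma-glutamyltranspeptidase they were Cs7g06090 (0.30) and the sigma factor binding protein 1 (Cs1g16220, 0.36).

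A list of 6 further genes of serine supply and of ethylene, cytokinin or kinase signalling, all named by the study from these libraries and so no independent evidence of direction, did not differ in 1 direction: 4 of 6 were higher and 2 of 6 lower in every MT library than in every WT library. Over tested genes, 23.3% were wholly higher and 5.36% wholly lower. At an adjusted p of 0.05 limma called 0 of the 6 in either direction, with 0.0179% of tested genes called higher and 0.0179% called lower. Without the intensity trend 1 of the 6 was called higher, where 8 of the 16719 tested genes were. With a block for the replicate number 1 of the 6 was called higher, where 91 tested genes were. At an unadjusted p of 0.05 both limma and limma voom called 4 of the 6 higher and 2 lower. At that threshold limma called 16.9% of tested genes higher and 4.93% lower, and limma voom called 2772 tested genes higher and 808 lower. Without MT3, 4 of the 6 were called higher at the adjusted p, beside 3.28% of tested genes, and 1 lower, beside 1.88%. Serine hydroxymethyltransferase (Cs3g16860), which interconverts serine and glycine, had 29.5, 42.2 and 64.0 RPKM in MT1, MT2 and MT3, against 86.6, 67.1 and 88.2 RPKM in WT1, WT2 and WT3. Its highest MT library almost reached its lowest WT library, which was 1.05 times as high. D-3-phosphoglycerate dehydrogenase, the entry step of serine synthesis, was matched by 2 neighbouring identifiers that were both higher in MT. Orange1.1t04496 averaged 12.2 ± 4.18 RPKM in MT and 2.52 ± 0.408 RPKM in WT, and orange1.1t04497 averaged 16.3 ± 7.38 RPKM in MT and 2.55 ± 0.337 RPKM in WT (SD, n = 3 each).

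The ethylene-responsive factor RAP2-7 (Cs8g17390), of the AP2 family, averaged 23.9 ± 6.48 RPKM in MT and 7.41 ± 1.70 RPKM in WT (SD, n = 3 each). The response regulator ARR2 (Cs8g18860), known from cytokinin signalling, averaged 3.19 ± 0.187 RPKM in MT and 0.950 ± 0.0531 RPKM in WT (SD, n = 3 each). Mitogen-activated protein kinase kinase 4 (orange1.1t02662), known from stress and stomatal signalling in Arabidopsis, averaged 20.2 ± 1.91 RPKM in MT and 40.4 ± 9.76 RPKM in WT (SD, n = 3 each). None of the 6 genes had the library order of ACC synthase and cyanoalanine synthase in MT. Orange1.1t04496, orange1.1t04497 and RAP2-7, all higher in MT, had the reverse order in MT and the same order in WT. In MT2 they thus lay farthest from WT and in MT3 nearest, though RAP2-7 was almost equal in MT1 and MT2 (27.6 and 27.8 RPKM). That reverse order in MT was found in 22.1% of tested genes.

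The low values of ACC synthase and cyanoalanine synthase in MT2 and their high values in MT3 stood beside differences of the whole libraries. On the first principal component of all tested genes, which held 56.3% of the variance, MT2 was at 78.9, MT1 at 30.2 and MT3 at 6.49, against -46.1 to -29.8 for the WT libraries. Of the 896 genes wholly lower in MT, 60.4% were lowest in MT2 and 61.3% had MT3 as the highest MT library. The median of these genes was below the WT mean by a log2 difference of -0.84 in MT2, -0.64 in MT1 and -0.46 in MT3. ACC synthase was at -3.09, -1.66 and -1.08 on the same scale and in the same library order, and cyanoalanine synthase at -3.53, -2.30 and -0.70.

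Genes listed as markers of cell types also differed between the libraries. The study named them from these same libraries, so that they separate MT from WT is no independent evidence. The 5 genes listed for the epidermis and stomata summed to 1385 RPKM in MT1, 225 in MT2 and 1969 in MT3, against 2435 to 3194 RPKM in the WT libraries. Most of that sum came from 2 matches to the acyltransferase DCR, which acts in cutin formation: Cs9g17800 had 655, 97.3 and 972 RPKM in MT1, MT2 and MT3, against 1564, 1182 and 1383 RPKM in WT1, WT2 and WT3. In MT this is the order of ACC synthase and cyanoalanine synthase, and the second match, Cs9g17750, had it as well, whereas in WT both were lowest in WT2. MUTE (Cs9g06130) was lower in every MT library, at 2.25 to 5.62 RPKM against 21.2 to 25.0 RPKM in WT, and HDG5 (Cs3g09300) was higher, at 12.7 to 25.3 RPKM against 1.93 to 2.37 RPKM. EPFL9 (Cs7g16890) was at 0 in all 3 WT libraries and at 0.573 to 1.59 RPKM in MT.

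The oil gland marker limonene synthase (Cs5g22980) had 0.0494 to 0.280 RPKM in MT and 1.68 to 4.03 RPKM in WT. The seed marker glycinin (Cs3g04540) was at 0 in MT2, at 0.233 RPKM in MT1 and at 2.03 RPKM in MT3, against 11.7 to 25.1 RPKM in WT, and so had the same order within MT. All 7 markers were named by the study from these libraries, so their direction is no independent evidence of a change in cell composition. The part of cell composition in the differences of the 4 genes was not tested. In these bulk samples, fewer cells of a type and less RNA per cell cannot be told apart.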

How the data were processed

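The deposited values are RPKM, computed by the authors from 100 bp single-end reads cleaned and aligned with TopHat and Bowtie on the genome of sweet orange (the submitters' processing notes name Bowtie2 2.1.0); their text names no read counter. Ambiguously mapped reads were left out, and no scaling between libraries is described. All 6 columns were used (0 left unused). From the steps between RPKM values, whole reads were recovered within 0.005 reads for 100% of the 23454 genes above 0.

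Limma 3.58.1 (R 4.3.3) was run on log2(RPKM + 0.5) for 16719 genes averaging 0.3 RPKM or more, MT minus WT, with an intensity trend and no block, and was tested on simulated data. Descriptions used Python 3.11.15, numpy 2.4.6, pandas 2.3.3, scipy 1.17.1 and matplotlib 3.10.9. Each median-ratio factor scaled a library to the geometric mean. Poisson intervals (95%) cover counting error only.

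The members, lists and tests were chosen with earlier results of these data known. Named were the 4 members, 6 pathway genes, 7 markers and, per member, the 2 nearest profiles (averaging 3 RPKM or more) and the 3 nearest with a Swiss-Prot match. Genome sequence, gene positions and other ethylene or cyanide genes were not analysed here, and neither were the study's qRT-PCR and metabolite values. Alternatives were pseudocounts of 0.1 and 1, no filter, a filter at an average of 3 RPKM, 3 rescalings, no trend, robust eBayes, voom, a replicate block, an adjusted p of 0.1 and leaving out each library.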

Additional observations from a re-analysis of the deposited data

How the results depend on the processing

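The 4 differences MT minus WT stayed below 0 in 52 of 52 recomputed values, and 4 of these moved by more than the SD between replicates. The sign could hardly change, since the genes were chosen as lower and every MT value lay below every WT value. For cysteine synthase the difference relative to the median gene was -1.87 in limma voom. For gamma-glutamyltranspeptidase it was -2.37 with a pseudocount of 0.1, -1.60 with a pseudocount of 1 and -2.49 in limma voom. That gene has a mean below 3 RPKM and gave no value under the stricter filter.

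Limma called 6 genes at an adjusted p of 0.05, 10 with a pseudocount of 0.1, 11 after median-ratio rescaling (4 higher and 7 lower), 12 after quantile normalization, 15 without the trend, 0 in voom (3580 at an unadjusted p of 0.05) and 427 at an adjusted p of 0.1. Leaving out 1 library gave 0 to 863 genes, with 0 without WT1, without WT2 or without WT3 (2711, 2977 and 2260 at an unadjusted p of 0.05), 11 without MT2 and 863 without MT3. The share of genes wholly lower in MT was 13.0% after median-ratio rescaling and 10.7% after quantile normalization, and 6.51% to 13.8% when each library was left out, with 13.1% without WT2 and 13.8% without MT3. With a library left out, fewer values must be separated. The condition is then easier to meet, so those shares are not comparable with the share over all libraries.

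With a replicate block limma called 122 genes, 91 higher and 31 lower, and 0 of the 4. Same-numbered MT and WT libraries had correlations of their deviations of -0.05, 0.19 and 0.16, and the other pairs had -0.29 to 0.16. Whether the numbers pair the samples cannot be told from these values. The SD over the libraries of the log2 ratio of cyanoalanine synthase to ACC synthase (0.5 added to RPKM unless varied) was 0.35 to 0.44 over all alternatives run. With 15 to 36 reads per MT library, depth limits the order of libraries for cysteine synthase and gamma-glutamyltranspeptidase.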
